A study of Mus musculus with 23 samples.

Results

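RNA of the axonal compartment was compared with RNA of the soma side in hippocampal cultures whose axons had been pulled. The libraries were chosen by title as 6 stretched axon and 6 stretched soma libraries, 12 of the 23 in the series. Hippocampal cells of C57Bl/6 mouse pups at postnatal day 1 were seeded on 1 side of a microfluidic chamber (200000 cells), and axons could grow through its channels to the other side. All cultures carried magnetic nanoparticles (MNPs) at 5 µg/ml. The stretched cultures were held in a magnetic field gradient of 50 T/m from day 1 to day 6 in vitro, and the control cultures, with 5 axonal and 6 somatic libraries, in a null gradient. The axonal samples are labelled as a pure axonal preparation. The somatic samples are labelled as total cell culture, and the protocol calls them somatodendritic, so axonal RNA is not removed from them.

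Most transcripts of a neuron stay in the cell body, and a smaller set is carried along microtubules and translated locally. Transcripts long studied in axons encode cytoskeletal proteins such as β-actin and GAP-43, ribosomal proteins and mitochondrial subunits. Hippocampal cultures of newborn pups also hold astrocytes and progenitors, whose processes can enter channels, so the axonal libraries were read against markers of the other cell types of the culture.

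The axonal libraries held 16369153 to 28528056 gene counts and the somatic ones 22421554 to 30732600. The genes with at least 1 count numbered 4263 to 10065 per axonal library and 22927 to 24575 per somatic library. Levels are given in CPM, a count scaled to a fixed library size, after TMM, a method that sets libraries to a common level. The axonal libraries varied far more among themselves, with a biological coefficient of variation of 3.54 when fitted alone against 0.184 in the somatic libraries. Nothing in the labels says that replicates came from separate animals, so p-values measure only the spread between these libraries. In bulk RNA, fewer cells of a type and less RNA per cell cannot be told apart.

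Of 14466 genes tested, 122 were higher in stretched axons (0.843%) and 4112 were lower (28.4%) in edgeR's quasi-likelihood test at a Benjamini-Hochberg adjusted p under 0.05. That test gives axonal and somatic libraries 1 shared spread, with a common biological coefficient of variation of 1.83. With a variance for each compartment, limma called 73 genes higher and 10062 lower. Of the 4112 genes lower by edgeR, 81 were measured in all 6 axonal libraries, 859 in 1 to 5 of them and 3172 in none. The median log2 fold change over all genes tested was −1.13, and it was 0.04 over the 1321 genes with counts in all 6 axonal libraries. Of the higher genes, 120 had counts in 6 of 6 axonal libraries, which is 9.08% of the 1321 genes so measured, and 72 had every axonal library above every somatic one. Such separation was found in 86 genes over the whole table (0.594%). The somatic libraries fell into 2 sets: replicates 1, 2 and 8 had 29.7 to 33.8 CPM of the Y-linked Eif2s3y and 14310 to 15220 CPM of summed astrocyte markers, and replicates 4, 5 and 6 had 11.4 to 15.7 and 7193 to 8366 CPM. Within replicate numbers 1, 2 and 8, 129 genes were higher (62 of them among the 122), and within 4, 5 and 6, 105 were (53 among the 122). Summed after TMM, the higher genes together reached 5.0 to 9.43% of the scaled library size in axons and 2.24 to 2.74% in somata. These are not shares of the raw counts.

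**Figure D1:**
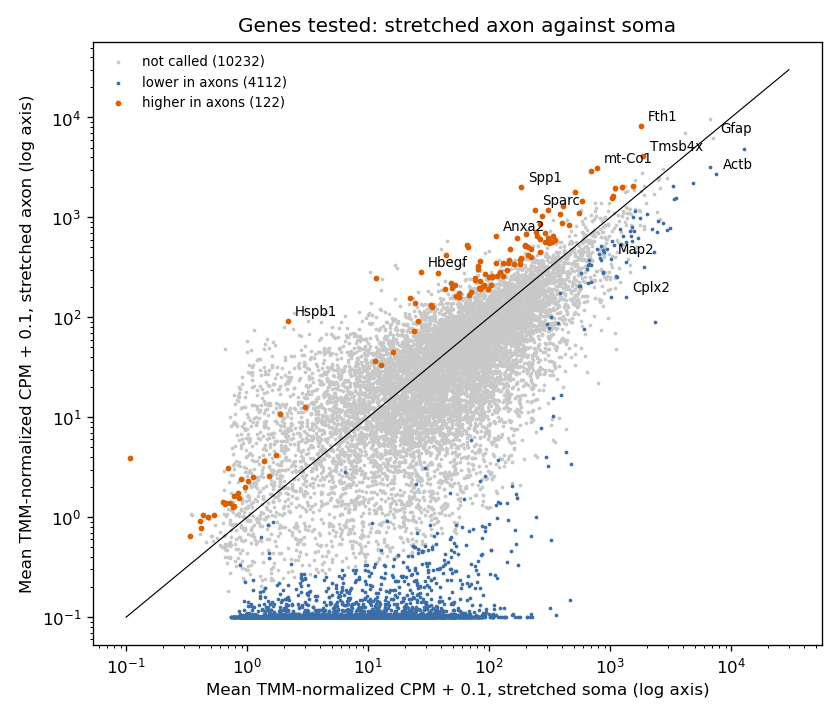
Mean TMM-normalized CPM (with 0.1 added, log axes) of each of the 14466 genes tested in 6 stretched soma libraries (horizontal) and 6 stretched axon libraries (vertical). Orange points are the 122 genes called higher in axons, blue points the 4112 called lower, most of which lie on the lower edge with no axonal count, and the line marks equal levels.

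The largest group among the higher genes with known names was the ribosome. The other leading genes encode iron storage proteins (Fth1, Ftl1), membrane and caveolar proteins (Cavin1, Anxa2), a secreted matrix protein (Sparc), a growth factor (Hbegf) and a mitochondrial subunit (mt-Co1). Known names made up 96 of the 122, and 26 were predicted genes or pseudogenes, which can share reads with their parent genes. By annotation, 99 of the 122 were protein coding and 20 were processed pseudogenes. None of the 157 marker genes in the 14 cell type lists was called higher, beside 0.843% of all genes tested. At that share few calls are expected among so few genes, so their absence shows little. Not all were tested: 0 of 6 erythroid, 7 of 12 endothelial and 7 of 13 oligodendrocyte markers were. All lists used here were chosen with earlier results of these data known, so their shares are descriptions and were not tested.

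Caveolae are small pits of the plasma membrane held by cavins and caveolins, and annexins are calcium-dependent membrane-binding proteins that pair with S100 proteins. The regions before 4 of these and related genes are shown because the genes were higher together and hold a match to a motif of a mechanically responsive factor (AP-1 or TEAD). Each line gives the 250 bases before the RefSeq start in GRCm38.p6, read 5′ to 3′ along the gene. Capitals mark AP-1 motifs (TGANTCA) and TEAD motifs (GGAATG or its reverse complement). The Anxa2 window is chr9:69453433-69453682, plus strand, that of S100a11 is chr3:93520246-93520495, plus strand, that of Myl12a is chr17:71002534-71002783, minus strand and that of Cavin1 is chr11:100970618-100970867, minus strand.
Anxa2: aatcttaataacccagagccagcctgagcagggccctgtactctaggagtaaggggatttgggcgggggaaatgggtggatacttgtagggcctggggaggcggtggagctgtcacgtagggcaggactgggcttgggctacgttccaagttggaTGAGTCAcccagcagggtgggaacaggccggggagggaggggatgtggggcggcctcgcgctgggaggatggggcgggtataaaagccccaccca
S100a11: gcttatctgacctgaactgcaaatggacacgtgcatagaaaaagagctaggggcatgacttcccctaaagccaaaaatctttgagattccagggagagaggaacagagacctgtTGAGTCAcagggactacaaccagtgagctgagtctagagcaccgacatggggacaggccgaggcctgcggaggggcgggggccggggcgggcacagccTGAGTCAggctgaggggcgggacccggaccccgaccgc
Myl12a: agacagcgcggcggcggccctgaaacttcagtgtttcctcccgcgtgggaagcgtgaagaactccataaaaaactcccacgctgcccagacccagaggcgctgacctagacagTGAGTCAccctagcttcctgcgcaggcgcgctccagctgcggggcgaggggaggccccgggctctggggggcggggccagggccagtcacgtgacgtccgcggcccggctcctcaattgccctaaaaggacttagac
Cavin1: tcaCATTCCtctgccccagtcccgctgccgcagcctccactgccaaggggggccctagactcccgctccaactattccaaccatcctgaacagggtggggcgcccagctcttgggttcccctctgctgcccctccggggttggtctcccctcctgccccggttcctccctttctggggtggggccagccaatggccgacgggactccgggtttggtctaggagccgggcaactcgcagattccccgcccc
Windows of 300 bases, which add 50 bases after the start, were found for 53 of the 65 higher genes with known names outside the ribosome. Of these 53, 4 held AP-1 on either strand (7.55%), namely S100a11, Myl12a, Anxa2 and Prdx1. AP-1 was found in 7.93% of all 27025 promoters of the table and in 4.57% of the 10822 windows of genes tested. TEAD was found in 6 of the 53 (11.3%), namely Hspb1, Cavin1, Myl12a, Slc25a5, Pfn1 and Ckb, beside 14.6% of all promoters and 11.8% of genes tested. TATAAA was found in 13 of the 53 (24.5%), beside 14.2% of all promoters and 6.99% of genes tested, and GGGCGG in 35 (66%), beside 64.5% of genes tested. The motif shares for AP-1 and TEAD were thus near those of all promoters, and a match is only a description of these letters.

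Anxa2, on chr9:69453620-69491795 (GRCm38), was at 270 to 938 CPM in the axonal libraries (median 716) and at 98.2 to 138 CPM in the somatic ones (median 110). Every axonal library was above every somatic one. The log2 fold change was 2.52 (SE 0.36, n = 6 and 6, adjusted p = 8.3e-05, edgeR). Cavin1, which builds the caveolar coat, ran from 92.8 to 1026 CPM in axons (median 385) and from 55.9 to 76.9 CPM in somata (median 66.7). Its groups did not overlap, with axonal replicates 1 (1026 CPM) and 8 (980 CPM) highest and replicate 4 just above the somatic range. The log2 fold change was 2.93 (SE 0.60, edgeR adjusted p = 0.0018). Within replicate numbers 4, 5 and 6 it was 1.29 and not called (edgeR adjusted p = 0.11), and S100a11 and Myl12a were not called there either (0.14 and 0.30). S100a11, a calcium-binding partner of annexins, was at 30.8 to 740 CPM in axons and 27.3 to 46.7 CPM in somata, and only axonal replicate 4 fell in the somatic range (log2 2.90, SE 0.65, edgeR adjusted p = 0.0033). Of the 18 tested members of the caveolae, annexin and S100 list, 5 were called higher (Cavin1, Anxa2, Anxa3, Anxa5, S100a11), 2 lower and 11 neither. These shares were 27.8% higher and 11.1% lower, beside 0.843% and 28.4% of all genes tested. The list's median log2 fold change was 1.17, beside −1.13 over all genes. Its summed level was 1319 to 5635 CPM in axons and 802 to 1130 CPM in somata, so all 6 axonal sums lay above the somatic range. Anxa3 had no count in axonal replicate 4 and reached 877 CPM in replicate 2, and its log2 fold change of 4.42 (edgeR adjusted p = 0.038) lost its call without any 1 of 7 libraries, axonal replicate 2 or any somatic one (adjusted p 0.074 to 0.084). The lower members, Cavin2 and Anxa11, had no axonal count.

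Hbegf, the heparin-binding ligand of the epidermal growth factor receptor family, was at 110 to 534 CPM in axons (median 220) and at 19.2 to 40.6 CPM in somata (median 25.9). Axonal replicates 2 and 6 were highest, and the groups did not overlap. The log2 fold change was 3.37 (SE 0.55, edgeR adjusted p = 0.00024), about 10.3 times the somatic level. With all 4 groups of the series in 1 fit it was 3.35 and not called (edgeR adjusted p = 0.085). The family's receptors went the other way: Egfr, Erbb2, Erbb3 and Erbb4 were called lower, as was the ligand Egf. Erbb4 was at 4.1 to 6.98 CPM in somata and had no count in any axonal library, at least 47.1-fold lower when 3 counts per library are taken as the floor. Of the list's 8 tested genes, 1 was higher (12.5%), 5 were lower (62.5%) and 2 were not called. Over all genes tested, 0.843% were higher and 28.4% lower. Of its other ligands, Areg, Btc, Epgn, Ereg and Nrg2 also had no axonal count. The ligands Tgfa and Nrg1 had counts in at least 1 axonal library.

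Matrix and actin-linked genes gave smaller counts. Sparc, a collagen-binding matrix protein made by glia (chr11:55394500-55423183), was at 580 to 2106 CPM in axons (median 1002) and at 170 to 295 CPM in somata (median 241). All axonal libraries were above all somatic ones (log2 2.29, SE 0.37, edgeR adjusted p = 0.00022). Serpinh1, a collagen chaperone, was also higher (log2 1.76, SE 0.44, edgeR adjusted p = 0.0078), with 1 axonal library in the somatic range. These were the 2 higher genes of 22 matrix genes tested (9.09%), of which 2 were lower (9.09%, Lama2 and Vcan). Over all genes tested, 0.843% were higher and 28.4% lower. The matrix list's median was 0.79. In the contractile actin list, Myl12a (log2 2.81) and Myl6 (log2 0.76), regulatory and essential light chains of myosin, were higher. The heavy chain Myh10 was lower. Of the 15 tested, 13.3% were thus higher and 6.67% lower. The Myl6 call was lost without somatic replicate 2 or 6 (edgeR adjusted p 0.051 to 0.053). Of 24 integrin and focal adhesion genes tested, none was higher and 1 was lower (4.17%). Their sums were 794 to 3161 CPM in axons and 1203 to 1442 CPM in somata. Of 12 YAP and TAZ effectors and targets, none passed the test, although all 6 axonal sums (384 to 2040 CPM) were above the somatic range (269 to 299 CPM) and the list's median log2 fold change was 1.09. The matricellular target Ccn1 was at 0 to 1099 CPM in axons (median 401) and 32.2 to 50.9 CPM in somata (edgeR adjusted p = 0.072).

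Iron storage and thiol antioxidant genes rose in part, and Fth1 had the highest mean CPM in axons of the 122 genes. Fth1, the heavy chain of ferritin (chr19:9980598-9985098), was at 4855 to 15990 CPM in axons (median 6894) and at 1530 to 2015 CPM in somata (median 1843). The axonal libraries were all above, replicate 2 far above the rest (log2 2.18, SE 0.26, edgeR adjusted p = 1.7e-05). Ftl1, the light chain (chr7:45457944-45459884), was at 1561 to 4649 CPM in axons (median 2728) and at 595 to 823 CPM in somata (median 682). Its groups did not overlap either (log2 2.08, SE 0.26, edgeR adjusted p = 2.3e-05). On a scale per kilobase of the longest transcript, Fth1 ranked 4 among all genes in axons and 33 in somata, and Ftl1 ranked 5 and 41. Txnrd1, which reduces thioredoxin (log2 1.91), Prdx1, a peroxidase that thioredoxin recharges (log2 1.32), and Txn1, thioredoxin itself (log2 1.09), were also called. In all, 5 of the 17 genes of the list were higher and none was lower, with a median of 1.10. All 5 were among the 13 members with counts in all 6 axonal libraries (38.5%, beside 9.08% of all such genes). The list was chosen with earlier results of these data known, so this share is a description and was not tested. The sums were 12877 to 28570 CPM in axons against 5460 to 6872 CPM in somata.

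**Figure D2:**
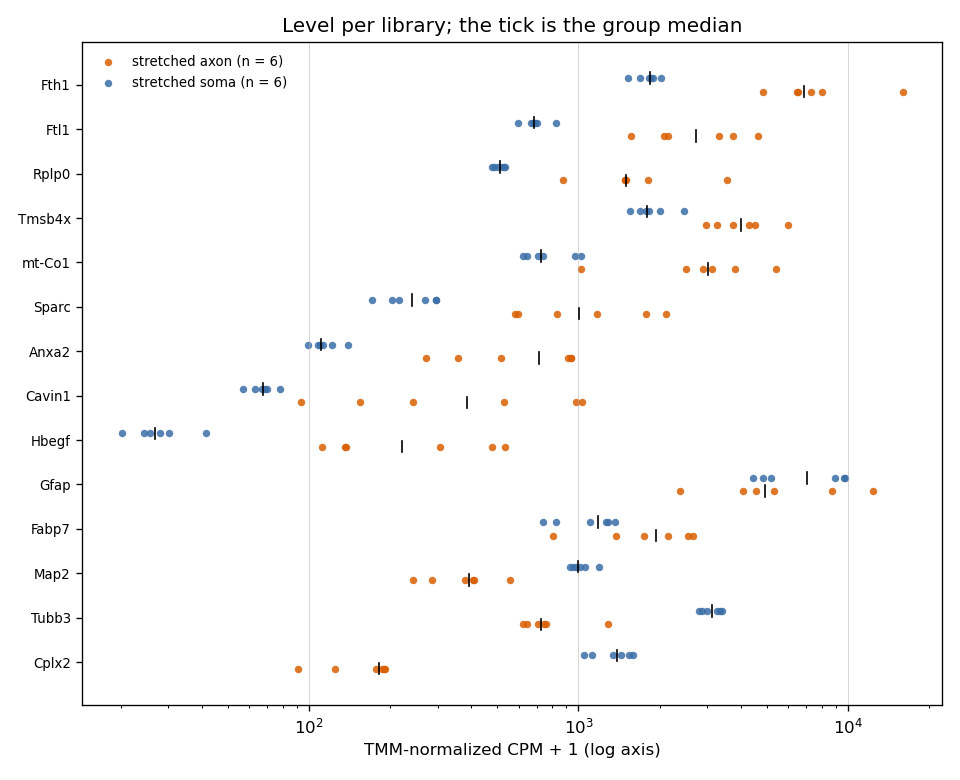
TMM-normalized CPM (with 1 added, log axis) of 14 genes in the 6 stretched axon (orange) and 6 stretched soma (blue) libraries; each point is a library and the black tick is the group median. Fth1, Ftl1, Rplp0, Tmsb4x, Sparc, Anxa2, Cavin1 and Hbegf are higher in every axonal library, Gfap and Fabp7 overlap between the groups, and Map2, Tubb3 and Cplx2 are lower in every axonal library.

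Cytosolic ribosomal protein genes encode the proteins of both ribosomal subunits. Of 77 tested, 31 were higher, 1 was lower and 45 were not called, and 73 had a log2 fold change above 0 (median 0.93). The 31 were among 71 members with counts in all 6 axonal libraries (43.7%, beside 9.08% of all such genes). Their sum was 18470 to 35350 CPM in axons and 10900 to 12550 CPM in somata. Rplp0, of the large subunit's stalk, was at 873 to 3566 CPM in axons (median 1497) and 477 to 532 CPM in somata (median 512). Its groups did not overlap, and axonal replicate 2 stood highest (log2 1.81, SE 0.29, edgeR adjusted p = 0.0002). Rpl32 (log2 1.70), Rpsa (1.68), Rpl41 (1.55), Rps2 (1.50), Rpl36a (1.62), Rps27 (1.56), Rps20 (2.02) and Rpl12 (1.68) were the other ribosomal genes among the 25 separated genes of known name with the highest fold change. The call was lost without somatic replicate 1 for Rps20 (edgeR adjusted p = 0.052), and without somatic replicate 1 or 2 for Rpl12 (0.051 to 0.052). Rps10 was the lower member, at 0 to 0.123 CPM in axons and 1.72 to 2.46 CPM in somata; its reads may be split with near-identical copies, as may those of other ribosomal genes.

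Respiratory chain genes encoded in the nucleus moved less than ribosomal ones. The 7 mitochondrially encoded genes tested all had a log2 fold change above 0 (median 0.88). Their list summed to 7879 to 42170 CPM in axons and 10570 to 11710 CPM in somata, with 5 axonal sums above the somatic range and 1 below. The mitochondrially encoded mt-Co1, a core subunit of cytochrome c oxidase, was at 1018 to 5394 CPM in axons (median 3017) and 620 to 1018 CPM in somata (median 722). The lowest axonal library was level with the highest somatic one to the digits given, and just above it before rounding. The log2 fold change was 2.00 (SE 0.33, edgeR adjusted p = 0.00031), and within replicate numbers 4, 5 and 6 it was 1.54 and not called (0.057). mt-Co1 was the 1 called gene of 7 mitochondrially encoded genes tested, all with counts in all 6 axonal libraries (14.3%, beside 9.08% of all such genes). Of the list's 13 members, mt-Atp6, mt-Atp8, mt-Co2, mt-Co3 and mt-Nd4l had no count in any axonal library. In somatic libraries, 5 members had none. Whether reads of such genes were lost in processing was not tested. Of 74 nuclear oxidative phosphorylation genes, 5 were higher (Cox6b1, Cox6c, Cox6a1, Atp5e, Uqcr10), none was lower and the median log2 fold change was 0.23. The 5 were among 61 members with counts in all 6 axonal libraries, a share of 8.2% that is near the 9.08% of all such genes. The call of Atp5e was lost without somatic replicate 1, 2, 4, 6 or 8 (edgeR adjusted p 0.053 to 0.060).

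The remaining separated genes of highest fold change were of mixed roles. Id1, an inhibitor of helix-loop-helix factors, was at 113 to 278 CPM in axons and 24.0 to 58.3 CPM in somata (log2 2.18). The small chaperone Cryab (log2 2.10), the glutathione transferase Gstm1 (1.93), the protease inhibitor Serpine2 (1.90), the esterase Esd (1.85), the mitochondrial ribosomal gene Mrpl21 (1.92), the cyclin Ccnd2 (1.66), Tcta (2.01) and the interferon-induced Ifitm2 (1.49) completed the group. The Ifitm2 call was lost without any 1 somatic library (edgeR adjusted p 0.080 to 0.11). A further set, chosen after its values were seen, had larger changes but overlapping groups. Spp1, the secreted phosphoprotein osteopontin, was at 82.7 to 3991 CPM in axons (median 2161) and 117 to 266 CPM in somata (log2 3.44, edgeR adjusted p = 0.0047). Igfbp2, which binds insulin-like growth factors, and Lgals1, a galectin, had log2 fold changes of 3.26 and 3.01. Hspb1, a small heat shock protein on the reactive astrocyte panel, was at 0 to 290 CPM in axons (median 59.6) and 1.23 to 3.19 CPM in somata (log2 5.47, SE 1.50, edgeR adjusted p = 0.013). It was the only higher gene of 21 tested on that panel (4.76%), where 6 were lower (28.6%, near the 28.4% of all genes tested).

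No neuron marker was called higher, and cytoskeletal transcripts went both ways. The 15 neuron markers summed to 3095 to 5334 CPM in axons and 9232 to 10250 CPM in somata, every axonal library below every somatic one. Of the 15, none was higher and 3 were lower (20%), beside 28.4% of all genes. Their median log2 fold change was −1.23 beside −1.13. Both all-gene values include 3172 genes with no axonal count. Of the 5 markers with counts in all 6 axonal libraries, 2 were lower (40%, beside 6.13% of all such genes). Tubb3, the neuronal β-tubulin, was at 620 to 1281 CPM in axons and 2790 to 3410 CPM in somata (log2 −1.98, SE 0.18, edgeR adjusted p = 2.8e-06). Gap43, the growth cone protein, was at 36.1 to 1261 CPM in axons (median 925) and 1777 to 2141 CPM in somata; axonal replicate 1 held the 36.1 CPM. Its log2 fold change of −1.23 was not called (edgeR adjusted p = 0.15), and without axonal replicate 1 it was called at −0.99 (edgeR adjusted p = 4.4e-05). Of 15 transcripts long studied in axons, none was higher, and Actb (log2 −1.46), Mapt (−1.83) and Tubb3 were lower (20%, beside 28.4% of all genes). The 3 were among 10 members with counts in all 6 axonal libraries (30%, beside 6.13% of all such genes). In the axonal cytoskeleton and growth cone list, 3 of 27 were higher and 13 lower (48.1%). The higher ones bind actin monomers. Tmsb4x, a thymosin, was at 2964 to 6005 CPM in axons and 1555 to 2459 CPM in somata (log2 1.13, SE 0.18, edgeR adjusted p = 0.0002). Tmsb10 (0.85) and Pfn1 (0.89) were the others; the Pfn1 call was lost without any 1 of 7 libraries (edgeR adjusted p 0.051 to 0.073). Per kilobase, Tmsb4x ranked 2 in axons and 7 in somata.

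Map2, a dendritic and cell body microtubule protein, was at 242 to 558 CPM in axons and 933 to 1193 CPM in somata (log2 −1.42, SE 0.21, edgeR adjusted p = 0.00012). Its transcript was therefore present in all 6 libraries labelled pure axonal. The nuclear RNA Malat1 was at 272 to 1898 CPM in axons and 373 to 1026 CPM in somata, with overlapping groups (log2 0.004, edgeR adjusted p = 0.998). Its direction turned in 12 of 27 alternative analyses, and it was 1.28 within replicate numbers 1, 2 and 8 and −1.27 within 4, 5 and 6. The 12 markers of cell body, dendrite or nucleus summed to 803 to 2617 CPM in axons and 3196 to 4350 CPM in somata, and 1 was lower.

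Falls were ranked among separated genes of known name with a mean of at least 10 CPM and counts in all 6 axonal libraries. The largest were in Ttbk1, a tau kinase (log2 −7.84), and Dgkg, a diacylglycerol kinase (−7.83), each under 1 CPM in axons. Ttbk1 had 1 to 16 counts per axonal library and Dgkg 1 to 14, most at or below the floor of 3 counts. The size of these 2 falls is therefore poorly measured. Creg2 (−6.33), Zmym6 (−6.30), Lsm12 (−6.16), Dcaf1 (−4.83), Myh10 (−4.56), Slc39a1 (−3.30) and Ppp3ca (−2.98) followed. Myh10 lost its call without axonal replicate 4 or any 1 somatic library (edgeR adjusted p 0.064 to 0.077). Cplx2, a presynaptic regulator of vesicle fusion, was the best measured of them, at 89.7 to 190 CPM in axons (median 181) and 1050 to 1593 CPM in somata (median 1390). The groups were far apart (log2 −3.08, SE 0.24, edgeR adjusted p = 1.4e-06). Shtn1, a clutch protein of growth cones, had no axonal count and 204 to 248 CPM in somata, at least 1897-fold lower. Gpam, Dcun1d4, Fam163b and Sarm1, which drives axon degeneration, were likewise absent from axonal libraries, by at least 1808-, 1723-, 1717- and 1499-fold.

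Markers of glia were present in every axonal library. Gfap, the astrocyte intermediate filament, was at 2371 to 12400 CPM in axons (median 4932) and 4438 to 9783 CPM in somata (median 7062), and per kilobase it was the gene of rank 9 in axons. Its groups overlapped (log2 −0.20, SE 0.39, edgeR adjusted p = 0.90). The 14 astrocyte markers summed to 4661 to 15010 CPM in axons and 7193 to 15220 CPM in somata, and 1 of the 14 was lower, 13 were not called and none was at 0 in all axonal libraries. Aqp4, an astrocyte water channel, had counts in 1 axonal library. The 9 radial glia or progenitor markers summed to 1804 to 3822 CPM in axons and 1351 to 2197 CPM in somata, and 5 of 6 axonal libraries were above the somatic range. Fabp7 (log2 0.78, edgeR adjusted p = 0.067) and Vim (log2 1.09, edgeR adjusted p = 0.055) carried most of that sum, and Sox2 had no axonal count. With reads scaled to the library total only, Gfap had a log2 difference of 0.36 in place of −0.20. The part of glial RNA in the 122 higher genes was not tested.

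Markers of other cell types varied from library to library. Part of this followed the replicate sets, which were chosen after seeing the data. Microglia, fibroblast and dividing cell sums were higher in each of axonal replicates 1, 2 and 8 than in 4, 5 and 6. Their minima in 1, 2 and 8 were 308, 866 and 829 CPM. Their maxima in 4, 5 and 6 were 46.7, 238 and 241 CPM. Excitatory neuron sums were lower in 1, 2 and 8, and the other sums below overlapped. Microglia or macrophage markers summed to 0 to 686 CPM in axons and 117 to 158 CPM in somata, with P2ry12 and Trem2 at 0. Mural cell markers summed to 227 to 1825 CPM and 241 to 325 CPM, with Des, Kcnj8, Notch3 and Vtn at 0 in axons. Within that list the contractile actin Acta2 was at 0 to 529 CPM in axons and 4.5 to 21.3 CPM in somata (edgeR adjusted p = 0.15). Fibroblast or meningeal markers summed to 0 to 1115 CPM and 255 to 382 CPM, with Foxc1, Igf2 and Slc6a13 at 0 in axons. Dividing cell markers summed to 1.35 to 2301 CPM and 309 to 464 CPM, with none at 0 in all axonal libraries. Endothelial markers summed to 0 to 199.5 CPM in axons and 23.6 to 33.8 CPM in somata, with 10 of 12 at 0, and oligodendrocyte markers to 0.048 to 232 CPM and 126 to 177 CPM, with 8 of 13 at 0. Ependymal or choroid plexus markers summed to 0 to 853 CPM and 63.9 to 133 CPM, with Rsph1 and Tmem212 at 0 in axons. Excitatory neuron markers summed to 8.34 to 705 CPM in axons and 1148 to 1373 CPM in somata, and inhibitory neuron markers to 0.026 to 154 CPM and 375.5 to 477 CPM. Nrgn, a postsynaptic calmodulin-binding protein of excitatory neurons, had 0.443 CPM in 1 axonal library and none in the others. Of 6 erythroid markers, 5 had no axonal count.

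Axonal replicate 4 held no count of the microglia, endothelial or fibroblast markers, and its dividing cell sum was 1.35 CPM. In that library Hbegf was at 110.5 CPM, Anxa2 at 516 CPM, Sparc at 580 CPM, Fth1 at 7270 CPM and Ftl1 at 2141 CPM, all above the somatic maximum. Its Cavin1 level (92.8 CPM) was the lowest of the 6 axonal libraries, and Anxa3 and Hspb1 had no count there. Its astrocyte sum was 4661 CPM, its radial glia sum 1804 CPM and its mural sum 227 CPM. Its oligodendrocyte lineage sum was 232 CPM, the highest of the 6 axonal libraries and above the somatic range of 126 to 177 CPM. The 2 libraries with the highest Cavin1, replicates 1 and 8, also had the highest mural sums (1825 and 1264 CPM) and integrin sums (3161 and 3145 CPM). Replicate 2, next in Cavin1 (527 CPM), had a mural sum of 441 CPM, below replicates 5 (680 CPM) and 6 (594 CPM). Its integrin sum of 1458 CPM was below that of replicate 6 (1673 CPM). These libraries were compared after their values were seen, and a link was not tested.

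**Figure D3:**
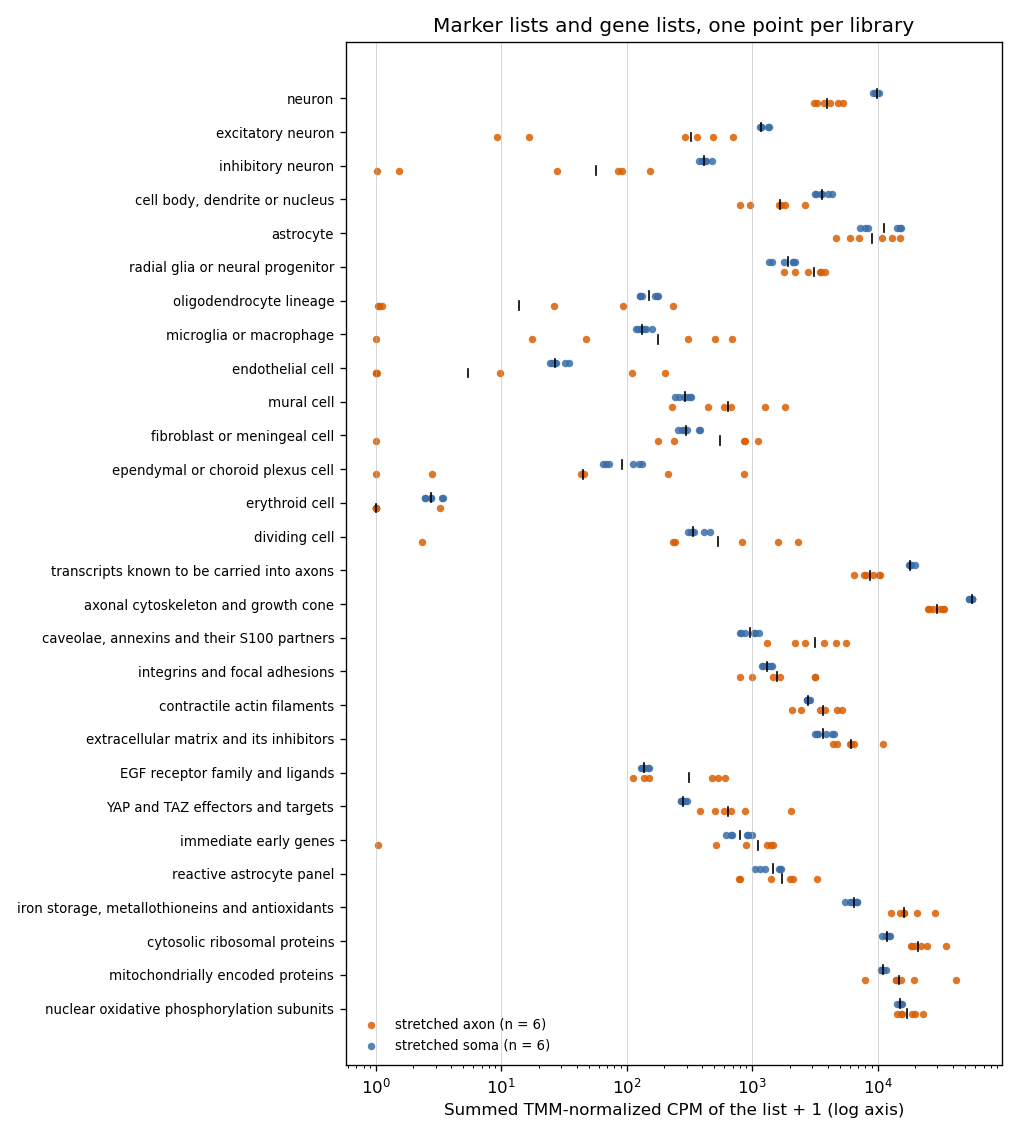
Summed TMM-normalized CPM (with 1 added, log axis) of 28 marker and gene lists in the 6 stretched axon (orange) and 6 stretched soma (blue) libraries; each point is a library and the black tick is the group median. The axonal points of rare cell types run from none to above the somatic points, those of neurons lie below the somatic points, and those of ribosomal, iron and caveolar lists lie above them.

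The higher genes had short transcripts. The median length of the longest annotated transcript was 1185 bases in the 122 higher genes, 3387 in all genes tested and 3469 in the lower genes. Among genes with counts in all 6 axonal libraries that were not called higher it was 2381. In the 65 higher genes with known names outside the ribosome it was 1731. Median GC content was 51.7% in the higher genes and 49.3% in all tested. The libraries were made from amplified poly(A) cDNA of low input, and the part of transcript length in the calls was not tested.

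The control cultures share no library with the stretched ones. There, 126 of 14728 genes were higher in axons (0.856%). Of the 122 genes higher in stretched axons, 121 were tested in control cultures, 105 had a log2 fold change above 0, 53 were called higher and 1 was called lower. The 53 shared genes are 43.4% of the stretched list and 42.1% of the control list. Fth1 (log2 2.10), Ftl1 (1.91), Rplp0 (1.79), mt-Co1 (2.51), Tmsb4x (1.26), Lgals1 (2.14) and Myl12a (2.07) were called in both. Hbegf (0.74, edgeR adjusted p = 0.90), Cavin1 (2.58, 0.23), Spp1 (2.30, 0.36), Anxa2 (0.87, 0.099) and Sparc (0.64, 0.27) were not called in control cultures. In control axons Hbegf was at 0 to 209 CPM with counts in 3 of 5 libraries.

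**Figure D4:**
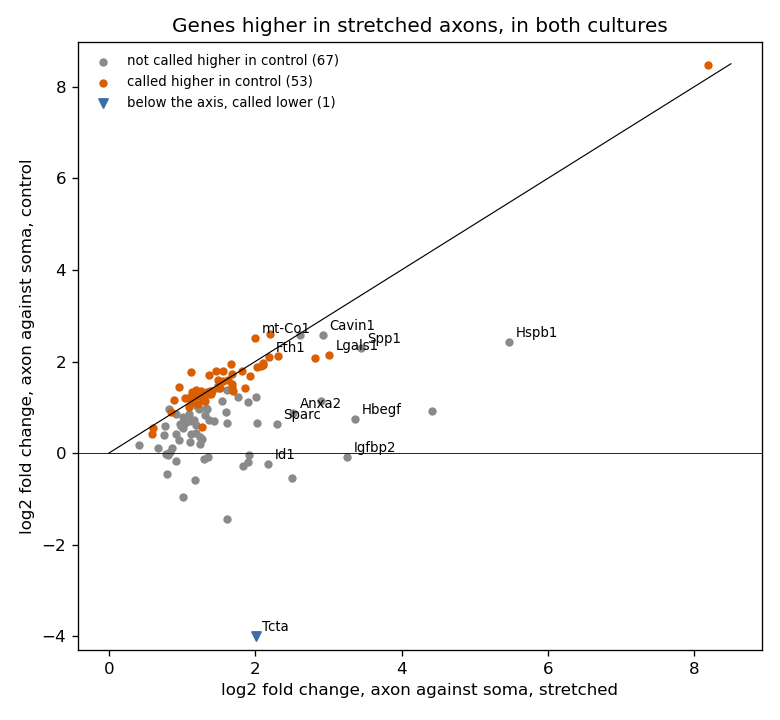
Log2 fold change of axon against soma in stretched cultures (horizontal) and control cultures (vertical) for the 121 of 122 higher genes tested in both. Orange points (53) were called higher in control cultures as well, the triangle marks Tcta, whose control value of −13.49 lies below the axis, and the line marks equal changes.

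The difference between the cultures was tested as an interaction over 4 groups, in which 3509 of 16113 genes were called (21.8%) by edgeR. That fit, like the main one, gives axonal and somatic libraries 1 shared spread. Among the 122 genes, 5 were called, a share below that of all genes, and all 5 had a larger change in stretched cultures. The 122 were chosen as higher in these same stretched axons, so that direction was favoured in advance and shows little. Anxa2 was at 154 to 391 CPM in control axons and 113 to 203 CPM in control somata, and its change was larger by 1.80 on the log2 scale in stretched cultures (edgeR adjusted p = 0.022). Sparc was at 292 to 909 CPM in control axons and 214 to 568 CPM in control somata, with a difference of 1.85 (edgeR adjusted p = 0.02). Igfbp2 was at 69.4 to 212 CPM in control axons and 38.9 to 192 CPM in control somata, with a difference of 3.51 (edgeR adjusted p = 0.016). Tcta had no count in any of the 5 control axonal libraries and 73.4 to 364 CPM in the stretched ones, with 43.2 to 76.7 CPM in control somata. The fifth was the predicted gene Gm6863 (1.42, edgeR adjusted p = 0.048). When only the 1470 genes with a count in all 6 stretched axonal libraries were tested, Tcta and Vkorc1l1 were the 2 calls and the differences of Anxa2, Sparc and Igfbp2 were not called (edgeR adjusted p 0.11, 0.23 and 0.12). limma with a variance for each compartment called 1 gene, Git1, and none of the 122.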

How the data were processed

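The deposited values are read counts per gene, made by the authors with fastp 0.20.1, STAR 2.7.08a and HTSeq 0.13.5 on mm10, per the submitters' processing notes, with FastQC 0.11.9 and MultiQC 1.12 for quality. Per the labels' protocols, low-input poly(A) cDNA was amplified and read with unique molecular identifiers. Annotation release, strand setting and the use of those identifiers are not given in the sources used here, so antisense and overlapping genes cannot be told apart. HTSeq's summary rows were dropped; reads in no feature equalled 3.53 to 5.68% in stretched libraries. Intervals and floors (3 counts per library) cover counting error only.

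The 6 stretched axon and 6 stretched soma libraries were grouped by title. Counts were filtered (filterByExpr), scaled by TMM and tested with edgeR 4.0.16 (quasi-likelihood, robust, R 4.3.3), with adjusted p under 0.05 over all genes; the procedure was tested on simulated data. DESeq2 1.42.0, limma 3.58.1, other scalings and filters, and each library left out were alternatives. Positions and lengths follow GENCODE vM21 (GRCm38); promoters are RefSeq's GRCm38.p6. The labels do not say that replicate numbers mark shared cultures, so the main test did not use them as pairs. A block by number was an alternative. Deviations of same-numbered axonal and somatic libraries had correlations of −0.023 to 0.042 over 9505 genes, which cannot settle the question. The genes named were the 25 separated genes of highest fold change with a mean of at least 10 CPM and a name that is not a predicted gene, clone or pseudogene name, the 10 measured and 5 absent genes that fell most, 6 reference genes (Map2, Gap43, Tubb3, Actb, Gfap, Malat1), and members of the lists. The members and lists were chosen with earlier results of these data known.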

Additional observations from a re-analysis of the deposited data

Results flagged for a closer look

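In each group of 6 libraries, a highest or lowest value was singled out when its gap to the next value exceeded 0.625 of the group's range (Dixon's test at 95%). Chance gives about 1 in 20 groups of values only where values are independent and normally distributed. The CPM values were not put on a log scale, and some sums contain genes also listed singly. The share singled out is therefore a description and no measure of excess over chance. Of 204 groups of values, 30 were singled out (14.7%), 24 of them in axonal libraries, all as the highest value.

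Axonal replicate 2 stood highest in 11 of them. These were Fth1 (15990 CPM), Rps20 (618 CPM), Rplp0 (3566 CPM), Rpl32 (1858 CPM), Rpl36a (318 CPM), Rps27 (674 CPM), Rpl41 (1597 CPM), Anxa3 (877 CPM) and Dgkg (0.667 CPM), and the sums of ribosomal protein genes (35350 CPM) and of mitochondrially encoded genes (42170 CPM).

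Axonal replicate 1 stood highest in Malat1 (1898 CPM), Hspb1 (290 CPM), Ttbk1 (0.417 CPM), Creg2 (1.2 CPM), Dcaf1 (5.97 CPM) and Nrgn (0.443 CPM). Replicate 5 stood highest in Ccnd2 (2735 CPM) and Tubb3 (1281 CPM). Replicate 8 stood highest in Aqp4 (210.5 CPM) and in the sums of ependymal (853 CPM), erythroid (2.25 CPM), matrix (10990 CPM) and YAP and TAZ (2040 CPM) genes. Among somatic libraries, replicate 4 stood highest in Gap43 (2141 CPM), Actb (8731 CPM), Mapt (1882 CPM) and Myl6 (435 CPM), replicate 5 in Prdx1 (634 CPM) and replicate 1 in the sum of mitochondrially encoded genes (11710 CPM).

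The change from soma to axon differed between stretched and control cultures by edgeR's interaction test for Anxa2 (1.80 on the log2 scale), Sparc (1.85) and Igfbp2 (3.51), larger in stretched cultures. The fitted differences of Tcta (15.56), Shtn1 (−13.88), Gpam (−12.46), Dcun1d4 (−14.09) and Fam163b (−11.22) rest on a group with no count in any library, so their size depends on the prior count. Ttbk1 (−7.03), Dgkg (−3.77), Creg2 (−5.99) and Zmym6 (−6.06) had larger fitted falls in stretched axons, where each was at 1.2 CPM or less. Those 4 differences, and those of Anxa2, Sparc and Igfbp2, were not called among genes with a count in all 6 stretched axonal libraries (edgeR adjusted p 0.066 to 0.31 for the 4) or by limma.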

How the results depend on the processing

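Of 69 called genes named in the text, none changed direction in any alternative and 21 kept their call in all that could be run, among them Fth1, Ftl1, Sparc, Rplp0, Ccnd2, Cplx2 and Tubb3. With the replicate block, 38 of the 69 lost their call, Hbegf (adjusted p = 0.145), Cavin1 (0.16), Anxa2 and S100a11 among them. With limma 12 did, without a filter 13 and with all 4 groups in 1 fit 8. Within replicate numbers 1, 2 and 8, 18 lost it, and within 4, 5 and 6, 27 did, with 3 against 3 libraries. The count of genes higher in axons was 122. It was 282 with scaling by total counts, which moved the median gene by 0.37 on the log2 scale, 290 by DESeq2 and 73 by limma (69 of them among the 122). It was 31 with a minimum log2 change of 1 and 11 with the replicate block. It ranged from 93 to 184 with 1 library left out, the highest without axonal replicate 5. Without a filter 126 genes were higher, 60 of them among the 122. The count of genes lower was 4112. It was 10805 without a filter, 70 among genes with a count in all 6 axonal libraries, 10062 by limma and 7676 with the replicate block. It ranged from 4075 to 6346 with 1 library left out, the highest without axonal replicate 8, and was 6749 within replicate numbers 4, 5 and 6, a split chosen after seeing the data.

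The replicate block also gave 19 in place of 126 genes higher in control axons, where DESeq2 gave 281, and no filter gave 10589 in place of 5070 lower. Only 2 of 6 axonal libraries correlated best with the somatic library of their own number. The axonal libraries vary so widely that these correlations cannot show whether the numbers mark pairs. Marker sums split by the sets 1, 2 and 8 and 4, 5 and 6 in both compartments, though for different lists. The interaction count of 3509 was 1 by limma and 2 among genes with a count in all 6 stretched axonal libraries. With CPM of the library total, the log2 ratio of summed levels was −0.78 for neuron markers, 1.18 for radial glia, −0.594 for transcripts known in axons, −0.43 for the axonal cytoskeleton, 2.03 for iron and antioxidant genes, 1.48 for ribosomal proteins and 0.74 for oxidative phosphorylation, all in the direction of the main ratio. The erythroid sum gave no ratio without axonal replicate 8. The cause of these shifts was not tested.

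Gfap, at −0.20, turned to 0.36 with total counts and 0.084 within replicate numbers 4, 5 and 6. With 1 library left out it ran from −0.523 to 0.024, above 0 only without axonal replicate 2. Malat1, at 0.004, turned to −0.001 with a mean of at least 1 CPM, −0.21 by limma, −0.30 with the replicate block, −0.051 with thinned libraries, −0.11 with the set of numbers as a covariate and −1.265 within numbers 4, 5 and 6. With 1 library left out it ran from −0.600 to 0.349, below 0 in 6 of the 12. Acta2, at 4.22 and not called, turned to −0.038 by limma. Depth limits the reading of genes with no axonal count: 3 counts per library correspond to 0.0782 to 0.154 CPM after TMM in the axonal libraries (mean 0.119, the floor behind the bounds).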

Other observations

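The largest fitted change among the higher genes was in Gm23653, a predicted gene annotated as a microRNA locus and singled out after its values were seen. It was at 1.02 to 10.6 CPM in stretched axons and had counts in 1 of 6 stretched somatic libraries (0.0512 CPM). In control cultures it was at 0.689 to 6.88 CPM in axons, and it was called higher in both cultures (edgeR adjusted p = 2.4e-05 and 1.2e-05).

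Immediate early genes summed to 0.052 CPM in axonal replicate 1 and to 518 to 1478 CPM in the other axonal libraries, beside 621 to 999 CPM in somata. The microglial marker with the highest axonal mean, C1qc, had counts in 2 of 6 axonal libraries, up to 503 CPM, and was at 8.3 to 19.8 CPM in somata. In the mural list Rgs5 was at 0.62 to 1333 CPM in axons and 195 to 264 CPM in somata. Neither was called (edgeR adjusted p = 0.63 and 0.55).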
